A study of Mus musculus with 4 samples.

Results

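The amino acid transporter genes described here are the rows of the deposited gene table whose symbol is *Slc7a1*, *Slc7a3*, *Slc7a5*, *Slc7a6*, *Slc7a11*, *Slc3a2*, *Slc1a4*, *Slc1a5*, *Slc6a9* or *Slc38a2*, which gave 10 genes of the 18598 listed. RNA-seq was performed on LSK cells, the lineage-negative, SCA-1+ and c-KIT+ bone marrow cells that hold the hematopoietic stem and progenitor cells. There were 2 libraries of control mice and 2 of *Bptf* -/- mice, and each library came from 5 pooled mice, C57BL/6, of about 3 months of age. The knockout mice (*Bptf* cKO) carried floxed *Bptf* alleles with *Mx1*-cre, and the controls were littermates with the floxed alleles and no cre (*Bptf* f/f). Mice of both genotypes had received pIpC, which induces interferon and so turns on the *Mx1* promoter, and the cells were sorted 10 days after cre induction. A control with cre and without the floxed alleles was not analysed here, so the effect of cre and that of *Bptf* loss cannot be told apart.

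Amino acids do not cross the plasma membrane on their own, and cells import them through carrier proteins of several solute carrier families. Some carriers exchange one amino acid for another, some let cationic amino acids follow the membrane potential, and some use the sodium gradient to concentrate their substrate. Cells that run short of amino acids, and cells under several other stresses, are known to raise the RNA of many such carriers through the transcription factor ATF4. In blood cells, these carriers supply leucine and glutamine for growth, cystine for glutathione and glycine for heme.

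The reads on listed genes ran from 14091054 to 30134742 per library, and each genotype had 1 library near each end of this range. *Bptf* had 5520 and 5850 normalized counts (read counts divided by a size factor for the library) in the control libraries and 3398 and 3320 in the *Bptf* cKO libraries. It was thus lower in both knockout libraries, as the labels require, by -0.76 in log2 fold change (SE 0.090; limma adjusted p = 0.0439), a call that was lost when any 1 library was left out. All 6 LSK marker genes examined, *Kit* among them, were present in every library and none passed the threshold. Their sums were 46214 and 37360 in control and 37579 and 34033 in *Bptf* cKO, with the groups overlapping. Of the 6, 2 were lower in both knockout libraries (23.8% of all tested genes were) and 0 were higher in both. Of 11 pluripotency markers, 9 were listed, with a summed level of 1008 and 1268 normalized counts in replicate 2 of control and *Bptf* cKO against 4.65 and 9.10 in replicate 1, where 6 of the 9 were at 0 in either genotype. The 5 mast cell and basophil markers were each higher in both *Bptf* cKO libraries, with sums of 1173 and 424 in control and 4902 and 16199 in *Bptf* cKO. None of them was at 0 and none was called, and 23.2% of all tested genes were likewise higher in both knockout libraries. The highest of them was *Cpa3*, a mast cell protease, at 855 and 244 normalized counts in control and 3645 and 9868 in *Bptf* cKO. The 12 erythroid markers summed to 5337 and 4037 in control and 4106 and 2812 in *Bptf* cKO, sums that consist mostly of *Tfrc*, the transferrin receptor, which dividing cells of other types express too. Without *Tfrc* the other 11 summed to 2049 and 1695 in control and 261 and 470 in *Bptf* cKO, 0.195 times control. Control replicate 1 stood apart from control replicate 2 in granulocyte and monocyte markers (72769 and 16088) and in B and T lymphoid markers (6998 and 1882). The *Bptf* cKO sums of these lists, 59478 and 51367 and 3952 and 2318, lay between the controls, so the direction turned with the control library used. They were 3.44 and 1.67 times control without control replicate 1 and 0.762 and 0.448 times without control replicate 2. Megakaryocyte markers summed to 6692 and 5461 in control and 4850 and 5012 in *Bptf* cKO. Stromal and endothelial markers summed to 2859 and 1863 against 2527 and 2519, with the groups overlapping, and these sums consist mostly of *Pecam1*. Without *Pecam1* the other 5 listed summed to 134 and 204 in control and 60.4 and 95.9 in *Bptf* cKO, 0.463 times control. No gene of these 4 lists passed the threshold. In bulk RNA such as this, more cells of a type and more RNA per cell cannot be told apart, and the tests measure the spread between these pools of mice.

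The RNA of all 10 transporter genes stood higher in each *Bptf* cKO library than in either control library. Over all 14858 genes tested, 23.2% had both knockout libraries above both controls. The fold difference between the group means ran from 1.18 for *Slc7a6* to 83.0 for *Slc7a3*, and the median log2 fold change was 1.53, beside 0.0010 over all tested genes. These genes had been chosen with this contrast already known, so the values below describe them and carry no test. In the fit across all genes, 7 of the 10 met the call rule (adjusted p below 0.05, fold above 1.5) with higher RNA and 0 with lower RNA, and *Slc7a6*, *Slc1a5* and *Slc38a2* did not. Without *Bptf* cKO replicate 1 or replicate 2, 0 of the 10 were called, and without control replicate 1 or replicate 2, 7 were. Of all tested genes, 0.370% were called higher and 0.740% in either direction, and because the genes were chosen from this contrast nothing is read from that comparison. All 10 genes passed the filter of a mean of at least 10 normalized counts over all libraries. *Slc7a3* passed it only through the knockout libraries, since its control mean was 6.48. The fewest reads behind any value were the 6 of *Slc7a3* in each control library.

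**Figure D1:**
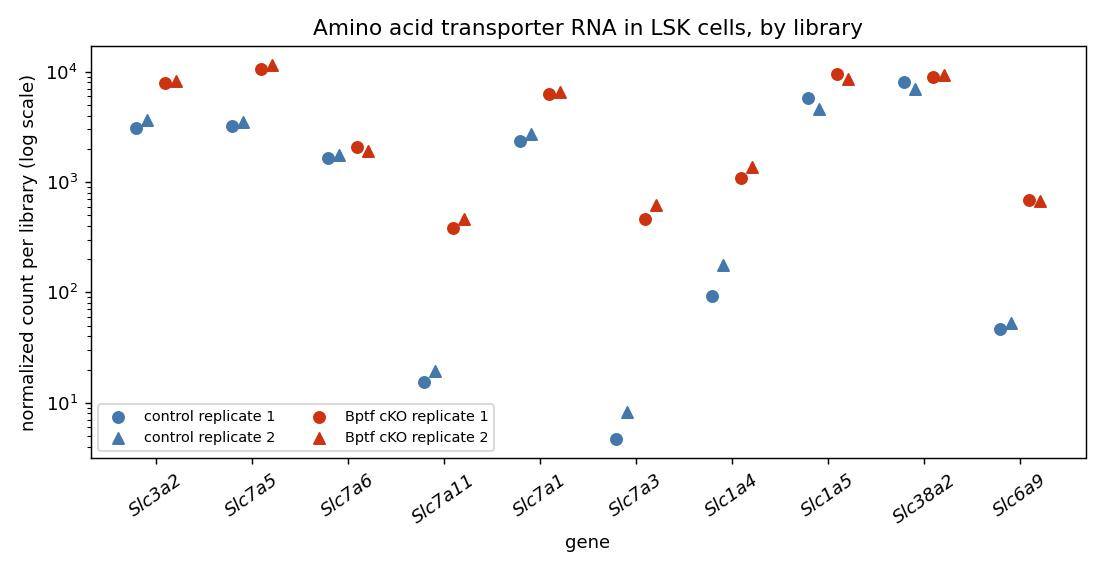
Normalized count of each amino acid transporter gene in each library (log scale), with control libraries in blue, *Bptf* cKO libraries in red, replicate 1 as circles and replicate 2 as triangles. The red points lie above the blue points for all 10 genes, far apart for *Slc7a3*, *Slc7a11*, *Slc6a9* and *Slc1a4* and close together for *Slc7a6* and *Slc38a2*.

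The heteromeric carriers consist of a heavy chain, which brings the complex to the cell surface, and a light chain of the *Slc7* family, which carries the substrate. *Slc3a2*, at positions 8706882 to 8723369 of chromosome 19, minus strand (GRCm38, GENCODE vM21, as for all genes below), encodes the shared heavy chain, known as 4F2hc or CD98. Its normalized counts in replicates 1 and 2 were 3090 and 3622 for control, and 7962 and 8303 for *Bptf* cKO. The groups were well apart, with a 2.42-fold difference of the means and a log2 fold change of 1.28 (standard error 0.11).

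*Slc7a5*, at positions 121881150 to 121907694 of chromosome 8, minus strand, encodes LAT1, the light chain that exchanges large neutral amino acids such as leucine. It had 3194 and 3493 normalized counts in control and 10511 and 11584 in *Bptf* cKO. The lowest knockout library was 3.01 times the highest control library, and the log2 fold change was 1.72 (standard error 0.10). Heavy chain and LAT1 RNA therefore stood at similar counts in control cells, while LAT1 was the larger of the pair in knockout cells. Per kilobase of the longest annotated transcript, the ratio of *Slc7a5* to *Slc3a2* was 0.827 and 0.771 in control and 1.06 and 1.12 in *Bptf* cKO. The ranges of this ratio did not overlap. With median transcript lengths, *Slc7a5* was the larger in control too (means of 5410 against 4132 per kilobase) and in *Bptf* cKO (17876 against 10016). Which of the pair is larger thus depends on the length used.

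*Slc7a6*, at positions 106168857 to 106198706 of chromosome 8, plus strand, encodes y+LAT2, a light chain that exchanges cationic for neutral amino acids. Its counts were 1649 and 1741 in control and 2092 and 1898 in *Bptf* cKO, a log2 fold change of 0.23 (standard error 0.11). This was the smallest difference among the 10 genes. The knockout libraries lay above the controls by as little as 1.09-fold, and the difference came to 0.34 between the replicate 1 libraries and 0.12 between the replicate 2 libraries on the log2 scale.

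*Slc7a11* encodes xCT, the light chain that takes up cystine in exchange for glutamate and thereby feeds the synthesis of glutathione. The gene spans 49892526 to 50443614 on the minus strand of chromosome 3. It was close to the detection limit in control cells, with 15.5 and 19.4 normalized counts from 20 and 14 reads, and reached 385 and 467 from 593 and 331 reads in *Bptf* cKO. The exact 95% Poisson intervals, which cover counting error only, were 9.47 to 23.9 and 10.6 to 32.6 in control and 355 to 418 and 418 to 520 in *Bptf* cKO. Means differed 24.4-fold, and the log2 fold change was 4.53 (standard error 0.28), with 4.55 between the replicate 1 libraries and 4.52 between the replicate 2 libraries.

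Because *Slc7a11* and *Slc1a4* were the members whose RefSeq promoter window held the core of the C/EBP-ATF response element, the DNA motif through which ATF4 and its partners are known to act, the stretch around each match is given here, 5′ to 3′ on the gene's strand, with the matches in capitals. The *Slc7a11* stretch is chr3:50443614-50443728 of GRCm38.p6, minus strand, and ends at the base before the RefSeq start. The GENCODE gene begins at 50443614, the last base of this stretch. The *Slc1a4* stretch is chr11:20332704-20332773, minus strand, and ends 10 bases past the start.
Slc7a11: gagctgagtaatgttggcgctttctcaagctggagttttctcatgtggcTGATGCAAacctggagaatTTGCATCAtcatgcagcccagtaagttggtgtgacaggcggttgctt
Slc1a4: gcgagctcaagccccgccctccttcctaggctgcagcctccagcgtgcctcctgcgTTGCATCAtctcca
In *Slc7a11* the matches lay in opposite orientations with first bases at -66 and -47 from the start, and in *Slc1a4* the only match had its first base at -4 and ran across the start. The motif searched was TGATGNAA on both strands, in windows from 250 bases before to 50 bases after each start. Windows were given for 7 of the 10 genes, all but *Slc7a3*, *Slc7a5* and *Slc1a5*, and 2 of the 7 held a match. Of the 10378 tested genes with a window, 2.76% held one. *Slc7a1*, *Slc6a9*, *Slc3a2*, *Slc7a6* and *Slc38a2* had no match in the given windows. Their log2 fold changes ran from 0.23 for *Slc7a6* to 3.76 for *Slc6a9*. A link between a match and the size of the difference was not tested. The bases after the start in the only *Slc3a2* window, and in window 1 of *Slc7a6*, were not found in GENCODE transcripts of these genes. No window whose bases were found there was thus searched for *Slc3a2*. Shortened to TGATG, the motif was found for 4 of the 7 genes and for 31.7% of the tested genes. A match is a description of the letters, and sites outside the windows were not searched.

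The cationic amino acid carriers of the *Slc7* family work without a heavy chain and bring in arginine, lysine and ornithine. *Slc7a1* (CAT1), at positions 148327410 to 148399904 of chromosome 5, minus strand, is the carrier of this kind found in most tissues. It had 2335 and 2698 normalized counts in control and 6259 and 6504 in *Bptf* cKO. Both knockout libraries were at least 2.32 times both controls, and the log2 fold change was 1.35 (standard error 0.11).

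*Slc7a3* (CAT3), at positions 101079210 to 101086020 of the X chromosome, minus strand, showed the largest fold difference of the 10 genes. Its counts were 4.65 and 8.32 in control, from 6 reads in each library, and 459 and 618 in *Bptf* cKO, from 706 and 438 reads. The exact 95% Poisson intervals were 1.71 to 10.1 and 3.05 to 18.1 in control and 426 to 494 and 561 to 679 in *Bptf* cKO. A gene barely above detection in control cells was thus readily detected in knockout cells. Its log2 fold change was 6.20 (standard error 0.38) with a pseudocount of 1 and 5.05 with a pseudocount of 10, so the size of its fold depends on how the few control reads are treated. *Slc7a3* is also known from pluripotent cells. The pluripotency markers were at 4.65 and 9.10 in the replicate 1 libraries, and the *Slc7a3* difference between those libraries was 6.35 on the log2 scale, against 6.05 between the replicate 2 libraries, which held those transcripts in both genotypes. The part of pluripotency transcripts in the *Slc7a3* difference was not tested. Per kilobase, *Slc7a3* RNA was 19.1% and 24.8% of that of *Slc7a1* in *Bptf* cKO, from 0.520% and 0.804% in control.

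The neutral amino acid carriers among the 10 genes differed widely in size of change. *Slc1a4* (ASCT1), at positions 20302180 to 20332713 of chromosome 11, minus strand, carries alanine, serine and cysteine with sodium. It had 92.2 and 176 normalized counts in control and 1085 and 1374 in *Bptf* cKO. The control libraries differed 1.91-fold from each other, the widest spread within a genotype among the 10 genes, and the groups were still 6.16-fold apart at their nearest. The log2 fold change was 3.25 (standard error 0.33), with 3.54 between the replicate 1 and 2.96 between the replicate 2 libraries.

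*Slc1a5* (ASCT2), the main glutamine carrier of many dividing cells, lies at positions 16781340 to 16798274 of chromosome 7, plus strand. Its counts were 5769 and 4603 in control and 9618 and 8650 in *Bptf* cKO, a log2 fold change of 0.82 (standard error 0.14). Both knockout libraries lay above both controls. *Slc1a4* and *Slc1a5* encode members of the same family, and *Slc1a4* RNA per kilobase was 1.14% and 2.73% of that of *Slc1a5* in control and 8.06% and 11.4% in *Bptf* cKO.

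*Slc38a2* (SNAT2), at positions 96687392 to 96699730 of chromosome 15, minus strand, couples the uptake of small neutral amino acids to sodium and is a classic gene of the response to amino acid shortage. It was among the members with the most reads, with 8148 and 6923 normalized counts in control and 8969 and 9249 in *Bptf* cKO. The log2 fold change was 0.28 (standard error 0.11), 0.14 between the replicate 1 libraries and 0.42 between the replicate 2 libraries. The nearest libraries were 1.10-fold apart, less than the spread between the control libraries.

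*Slc6a9* encodes GlyT1, the sodium- and chloride-coupled glycine carrier, which in developing red cells supplies glycine for heme. The gene lies at positions 117834506 to 117875198 of chromosome 4, plus strand. It had 46.5 and 52.7 normalized counts in control and 686 and 680 in *Bptf* cKO, from at least 38 reads in each library. The libraries of a genotype were closer together than the 13.8-fold difference between the genotypes by a wide margin, and the log2 fold change was 3.76 (standard error 0.19). Of the 12 erythroid markers, 9 were lower in both *Bptf* cKO libraries (23.8% of all tested genes were) and 0 higher in both. *Epor*, the erythropoietin receptor, was the 1 gene of the list that passed the threshold. *Tfrc*, the highest, had 3287 and 2342 normalized counts in control and 3845 and 2342 in *Bptf* cKO. The hemoglobin gene *Hba-a2* was at 0 in *Bptf* cKO replicate 1, whereas *Hba-a1* had 45.0 and 52.7 in control and 9.75 and 55.03 in *Bptf* cKO. Exons of *Slc6a9* share 1429 bases with exons of *Ccdc24*, which is not listed, 511 bases with those of *Gm17114*, also not listed, and 46 bases with those of *B4galt2*, which lay between 20.9 and 46.6 normalized counts in the 4 libraries, all on the opposite strand. Whether reads were counted by strand is not given in the sources used here. None of the other 9 genes shared exon bases with another annotated gene.

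**Figure D2:**
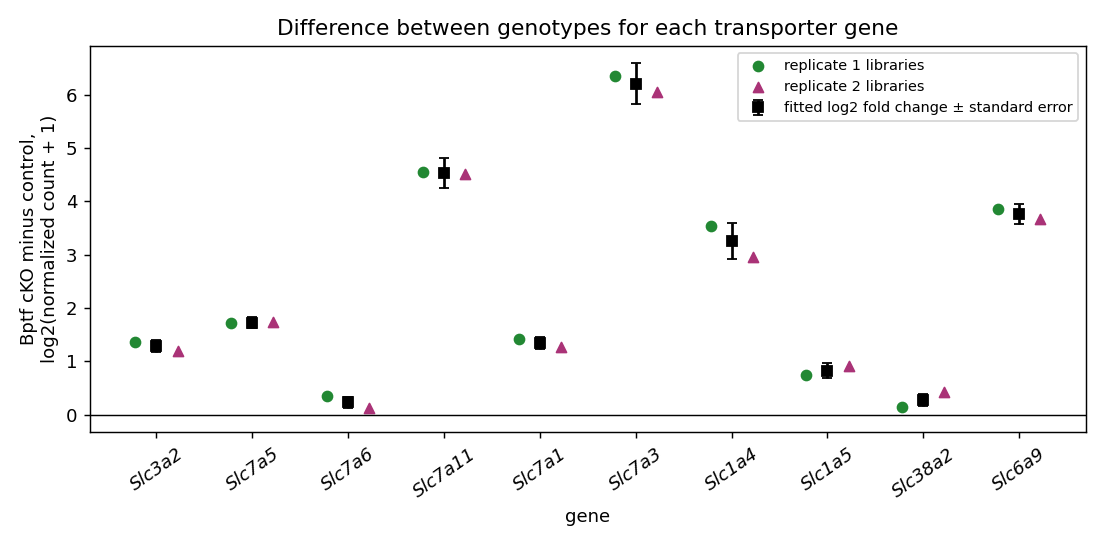
Difference between *Bptf* cKO and control on the log2(normalized count + 1) scale for each gene, with the fitted log2 fold change and its standard error in black, the difference between the replicate 1 libraries as green circles and that between the replicate 2 libraries as purple triangles. The fitted values run from 0.23 for *Slc7a6* to 6.20 for *Slc7a3*, and the points of all 10 genes lie above 0.

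The 10 genes fell into a group with large and a group with modest differences when set side by side. *Slc7a3*, *Slc7a11*, *Slc6a9* and *Slc1a4*, which were at or below 176 normalized counts in the control libraries, had log2 fold changes of at least 3.25. *Slc7a5*, *Slc7a1* and *Slc3a2*, which were already at 2335 or above, had log2 fold changes between 1.28 and 1.72. *Slc1a5*, *Slc38a2* and *Slc7a6* had less. By size of log2 fold change among the 14858 tested genes, *Slc7a3* ranked 5, *Slc7a11* 19, *Slc6a9* 30 and *Slc1a4* 55, whereas *Slc38a2* ranked 2609 and *Slc7a6* 3116. The sum of the mast cell and basophil markers, which also were higher in the knockout libraries, differed 3.30-fold between *Bptf* cKO replicates 2 and 1. Single markers varied in this, with *Ms4a2* at 392 and 341 and *Mcpt4* at 40.9 and 2257.5 normalized counts in replicates 1 and 2. The single transporter genes differed between 0.899-fold (*Slc1a5*) and 1.35-fold (*Slc7a3*) between the same libraries. The part of the cell types these markers stand for in the transporter differences was not tested.

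Levels of different genes were compared as normalized counts per kilobase of the longest annotated transcript. In control cells the order was *Slc1a5* at 1848, *Slc38a2* at 1232, *Slc3a2* at 1193, *Slc7a5* at 951, *Slc7a6* at 452, *Slc7a1* at 351, *Slc1a4* at 34.2, *Slc6a9* at 14.3, *Slc7a3* at 2.36 and *Slc7a11* at 1.89 per kilobase (means of 2 libraries). The libraries of *Slc38a2* and *Slc3a2* overlapped, as did those of *Slc7a3* and *Slc7a11*, and the other neighbours in this order were apart. In *Bptf* cKO cells the order became *Slc1a5* at 3254, *Slc7a5* at 3141, *Slc3a2* at 2891, *Slc38a2* at 1489, *Slc7a1* at 889, *Slc7a6* at 532, *Slc1a4* at 313, *Slc6a9* at 196.3, *Slc7a3* at 195.8 and *Slc7a11* at 46.2 per kilobase. *Slc7a5* thus moved from place 4 to place 2, where its libraries overlapped those of *Slc1a5*, and *Slc38a2* moved from place 2 to place 4. *Slc6a9* and *Slc7a3* overlapped in knockout cells, and the other neighbours were apart.

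The sum of the 10 genes was 6199 and 5957 per kilobase in the control and 12824 and 13072 in the *Bptf* cKO libraries. *Slc7a5* made up 31.9% of the gain, *Slc3a2* 24.7% and *Slc1a5* 20.5%, whereas *Slc7a3* and *Slc7a11*, the genes with the largest folds, made up 2.82% and 0.645%. *Slc7a11* RNA per kilobase was 0.185% and 0.212% of that of *Slc7a5* in control and 1.40% and 1.54% in *Bptf* cKO. With the median annotated transcript length in place of the longest, *Slc7a5* went from place 2 in control to place 1 in knockout cells. *Slc38a2* then went from place 5 to place 6, and *Slc7a5* made up 45.2% of the gain. The order and the moves within it thus depend on which transcripts the cells use, which was not measured.

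**Figure D3:**
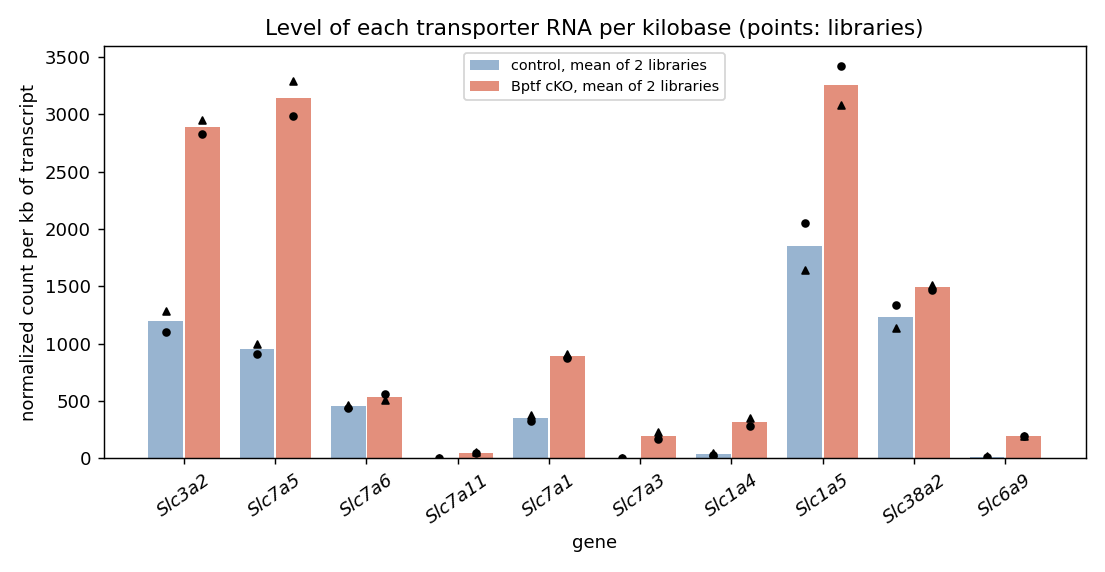
Level of each gene as normalized count per kilobase of its longest annotated transcript (linear scale from 0), with bars for the mean of the 2 control (blue) and 2 *Bptf* cKO (red) libraries and points for single libraries (circles for replicate 1, triangles for replicate 2). *Slc1a5*, *Slc7a5* and *Slc3a2* stand highest in *Bptf* cKO cells at 3254, 3141 and 2891, and *Slc7a11* remains lowest at 46.2.

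The list of other amino acid carriers of the plasma membrane had a median near no difference, with genes on both sides. Its 44 genes were chosen by family, not by the location or substrate of each protein. The genes described above, chosen with this contrast known, were left out of it. Nothing is therefore read from the difference between the medians. Of these, 25 were listed and 20 were tested. None passed the threshold with limma in either direction, with 4 higher and 3 lower at an unadjusted p under 0.05. Over all 14858 tested genes, 1009 were higher and 1331 lower at that unadjusted p. With whole reads recovered from the deposited values, edgeR's quasi-likelihood test also called 0, and DESeq2 called 2 higher and 2 lower. Their median log2 fold change was -0.0082, with 10 genes above and 10 below 0, and both knockout libraries lay above both controls for 6 of them and below for 5 (23.2% and 23.8% of all tested genes).

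Among these, *Slc7a7* and *Slc7a8* encode the light chains y+LAT1 and LAT2, further partners of the *Slc3a2* heavy chain. *Slc7a7* had 122 and 74.8 normalized counts in control and 227 and 288 in *Bptf* cKO, with log2 fold change 1.41 (SE 0.31; adjusted p = 0.132 by limma and 0.00899 by DESeq2). *Slc7a8* had 826 and 507 in control and 1265 and 1168 in *Bptf* cKO, with log2 fold change 0.91 (SE 0.24; adjusted p = 0.186 by limma and 0.0269 by DESeq2). Both were higher in both knockout libraries without passing the limma threshold. *Slc38a5* (SNAT5), a carrier of glutamine and related amino acids and a relative of *Slc38a2*, went the other way, with 116 and 73.5 in control and 6.50 and 16.9 in *Bptf* cKO, the latter from 10 and 12 reads (log2 fold change -3.01, standard error 0.57, limma adjusted p = 0.0984, DESeq2 adjusted p = 5.13e-04). *Slc36a4* (PAT4), a carrier of proline and tryptophan, had 558 and 517 in control and 277 and 247 in *Bptf* cKO (log2 fold change -1.04, standard error 0.15, limma adjusted p = 0.0660, DESeq2 adjusted p = 1.69e-04).

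**Figure D4:**
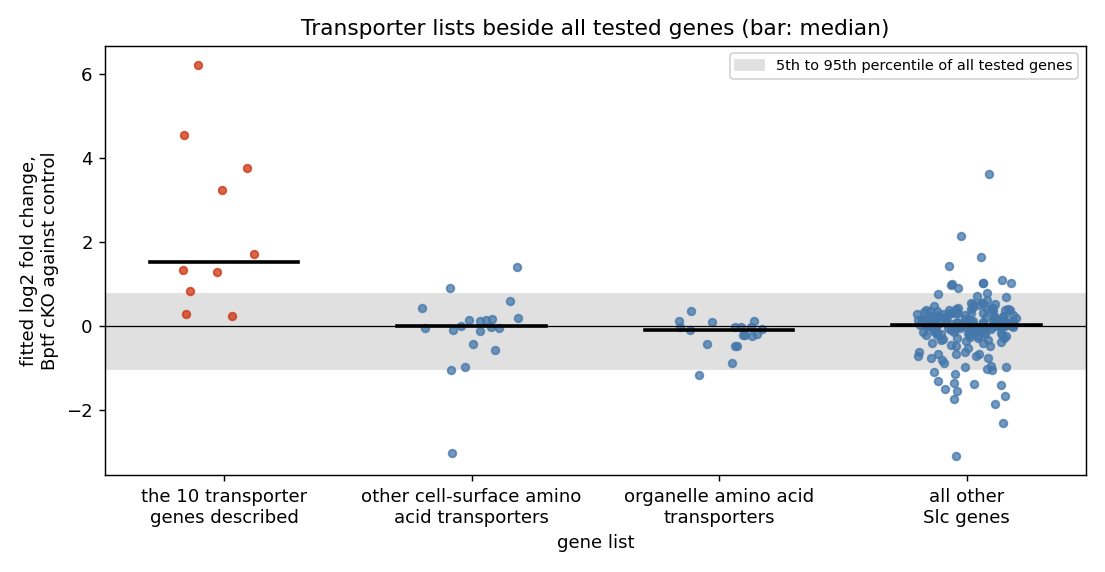
Fitted log2 fold change of *Bptf* cKO against control for the genes of 4 lists, 1 point per tested gene, with a black bar at each median and a grey band from percentile 5 to percentile 95 of all tested genes. The 10 genes described here, chosen with this contrast known, have a median of 1.53. Medians of the other lists are -0.0082 (other cell-surface amino acid carriers, chosen by family), -0.085 (organelle amino acid carriers) and 0.035 (remaining Slc genes).

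The amino acid carriers of lysosomes, vesicles and mitochondria had a median log2 fold change of -0.085 over 19 tested genes of 23. None was called by limma, edgeR or DESeq2, and 1 was higher and 1 lower at an unadjusted p under 0.05. Both knockout libraries lay below both controls for 8 of the 19 genes and above for 3 (23.8% and 23.2% of all tested genes). In sign, 4 of the log2 fold changes were above and 15 below 0. *Slc25a15*, the mitochondrial ornithine carrier, had 698 and 826 normalized counts in control and 961 and 974 in *Bptf* cKO (log2 fold change 0.35, limma adjusted p = 0.302). *Slc25a38*, which is linked to the glycine that mitochondria use for heme, had 535 and 446 in control and 337 and 371 in *Bptf* cKO (log2 fold change -0.47, limma adjusted p = 0.275). *Slc25a22*, a mitochondrial glutamate carrier, and *Sfxn2*, a sideroflexin, had log2 fold changes of -0.23 and -0.22. The plasma membrane glycine carrier *Slc6a9* and the mitochondrial *Slc25a38* thus stood on opposite sides of 0. Over the remaining 196 tested Slc genes the median was 0.035, limma and edgeR called 0 in either direction, DESeq2 called 6 higher and 7 lower, and 19 were higher and 14 lower at an unadjusted p under 0.05.

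Cystine brought in by xCT is used for glutathione, and 13 of 15 genes of glutathione synthesis, use and breakdown were tested. *Chac1*, which encodes an enzyme that breaks glutathione down, rose from 10.1 and 20.8 normalized counts in control to 228 and 178 in *Bptf* cKO (log2 fold change 3.70, standard error 0.43, limma adjusted p = 0.0430), from 13 and 15 reads in the control libraries. It was the only gene of this list that passed with limma, and its adjusted p was 0.0536 when genes with a mean under 50 were left out. Without either *Bptf* cKO library it was not called. *Ggt5*, a gamma-glutamyl transferase that acts outside the cell, had 774 and 518 in control and 385 and 288 in *Bptf* cKO (log2 fold change -0.92, limma adjusted p = 0.196, DESeq2 adjusted p = 0.0334). *Ggt1* and *Ggct*, of the same cycle, stood at 1.04 and 0.44 on the log2 scale (limma adjusted p = 0.443 and 0.326). The median over the 13 genes was -0.0013, beside 4.53 for *Slc7a11*.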

How the data were processed

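Total RNA of sorted LSK cells was sequenced in 2 control and 2 *Bptf* cKO libraries, grouped by the titles in the labels. The submitters' processing notes name HISAT2, featureCounts and DESeq2 and the builds GRCm38 and mm10, and versions and annotation are not given in the sources used here. The deposited values are a signal, read counts per gene that the authors scaled by each library's size factor, for 18598 genes with at least 11 reads in all. The authors also deposited their own log2 fold change, a standard error and a statistic (a score) together with p-value columns, which were not used. Dividing out the step of 1 read gave whole reads at 100% of values (tolerance 0.01). They totalled 24875746 and 14091054 in control replicates 1 and 2 and 30134742 and 14104526 in *Bptf* cKO, so counting error matters for low genes only.

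Genes with a mean of at least 10 were fitted as log2(normalized count + 1) with limma 3.58.1 (mean-variance trend, genotype only, Benjamini-Hochberg over 14858 genes, two-sided) in R 4.3.3. This scale understates the change of low genes. A gene was called at an adjusted p under 0.05 with a fold above 1.5. An exact permutation test of 2 against 2 libraries cannot reach the threshold and was not run. Alternatives were edgeR 4.0.16 and DESeq2 1.42.0 on the recovered reads, other pseudocounts, filters and scalings, the replicate number as a block, and each library left out. Lengths and positions came from GENCODE vM21 and promoters from RefSeq (GRCm38.p6). Python 3.11.15 with pandas 2.3.3 summarised the fits.

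The members and lists were chosen with earlier results of these data known. Named were all members, *Bptf* and *Kit*, and in each of 3 other lists every called gene and the 4 with the largest absolute log2 fold change at a mean of at least 50; among markers, the highest of a list. *Hba-a1*, *Hba-a2*, *Epor*, *Ms4a2*, *Mcpt4* and the overlapping genes were named after their values were seen. Marker lists were LSK, erythroid, granulocyte and monocyte, B and T lymphoid, megakaryocyte, mast cell and basophil, pluripotent, and stroma and endothelium. Protein sequences were not used here.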

Additional observations from a re-analysis of the deposited data

How the results depend on the processing

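The 2 libraries per genotype are the main limit, and low counts limit *Slc7a3* and *Slc7a11*. The libraries share replicate numbers and no stated origin. Deviations from the group means of same-numbered libraries correlated at 0.452 over 14858 genes, and with the replicate number as a block limma called 454 genes higher and 845 lower (55 and 55 without it), 3 and 2 of the other plasma membrane carriers, 1 glutathione gene lower, and 8 higher and 13 lower of the remaining Slc genes. With the block, edgeR gave 457 and 854 genes, 3 and 2 other plasma membrane carriers, 1 glutathione gene lower, and 9 and 13 remaining Slc genes. DESeq2 without the block gave 252 and 446 genes, 2 and 2 other plasma membrane carriers, 1 glutathione gene lower, and 6 and 7 remaining Slc genes, and with the block 263 and 459, 2 and 2, 1, and 5 and 9. A pseudocount of 0.5 or no filter gave 1 remaining Slc gene lower, and a minimum mean of 50 left 0 glutathione genes higher. Of the 10 genes described, 8 were called with the block or with DESeq2 and 7 with edgeR without the block.

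Leaving out 1 library at a time gave 1 to 76 genes higher and 0 to 41 lower, 0 to 7 of the 10 genes described, 0 to 1 other plasma membrane carriers higher (1 without control replicate 1) and 0 to 1 glutathione genes higher, the lone library of a genotype being assumed to vary like the other group. Without either *Bptf* cKO library the calls among the 10 genes fell to 0, with 1 call in all, while without control replicate 1 or 2 the number was 7. Without control replicate 2 the genes lower were 17. The median log2 fold change of the 10 genes was 1.53, and 1.45 to 1.62 with a library left out, 1.59 with the libraries recentred on their medians. *Bptf* missed the threshold after recentring (log2 fold change -0.71, adjusted p = 0.0547), with edgeR (-0.76, 0.0531) and with any library left out (-0.80 to -0.72). None of the 10 genes changed direction under any alternative run. *Kit*, at -0.010 in log2 fold change and not called, turned to 0.041 after recentring, 0.15 without control replicate 1 and 0.018 without *Bptf* cKO replicate 1 (range with a library left out -0.17 to 0.15). Marker sums without their highest gene or without a control library were added after seeing the data. Transcript length moved 17 of 20 levels per kilobase by more than the spread between replicates. The shorter motif matched 4 genes. The cause of these moves was not tested unless stated.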
